A study of Homo sapiens with 402 samples.

Results

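The copper dose series comprised 16 of the 402 libraries of a study that exposed MCF10A cells to chemicals, 4 libraries at each of 0.025, 0.25, 2.5 and 25 µM. MCF10A cells are an established line of human breast epithelium that does not form tumours. Dosed libraries were chosen by their copper labels and set against the 15 water controls on plate 3153-AT that carried the same plate barcode, among 93 libraries of that barcode. Arsenic, cadmium, lead and mercury filled the rest of the plate, and of these the libraries at 0.025 µM (16, 4 of each metal) and those of lead and mercury at 25 µM (4 each) were compared with copper. All groups were wild-type cells of a single passage, plated a day before dosing and exposed for 48 h, and controls received water. The labels name no copper salt and no copper content of the medium, so a dose is the added amount. Replicates are called biological, but whether they came from separate cultures is not stated, so p-values measure the spread between libraries.

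Copper is a redox-active metal that cells need as a cofactor, for instance of cytochrome c oxidase and superoxide dismutase, and that becomes toxic when it is free. Uptake runs through SLC31A1, chaperones such as ATOX1, CCS and COX17 hand it on, and the pumps ATP7A and ATP7B export it. Excess copper is bound by metallothioneins, which the zinc-sensing factor MTF1 switches on, and oxidative stress releases NRF2 from its sensor KEAP1 to activate genes of glutathione synthesis, NADPH supply and quinone reduction.

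The libraries fell into 2 sets. Set 1 held the copper libraries numbered 1 and 2 with 8 controls, and set 2 those numbered 3 and 4 with 7 controls. The labels give no batch, but the control sets differed by more than 2-fold in 2313 of 13424 genes tested (17.23%). S100A8, a calcium-binding protein of stressed epithelia, had a median of 797 CPM (counts scaled to library size) in the controls of set 1 and 13.7 CPM in those of set 2. The copper libraries split the same way, and S100A8 was at 1118, 1237, 33.1 and 42.4 CPM in replicates 1 to 4 at 25 µM. The fits reported here therefore carried a term for the set, and values within each set are given for the genes and lists described most fully. Depth was uneven as well, with 12237804 to 25769692 counts per copper library, 12580406 to 23917186 in the controls of set 1 and 1932159 to 5399270 in those of set 2. Comparisons within set 2 rest on these shallow controls.

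The cells carried epithelial markers throughout. KRT5, a basal keratin, was at 1039 to 1119 CPM (median 1099) in the controls of set 1 and 1208 to 1527 CPM (median 1225) in those of set 2. Of 13 markers of fibroblasts, endothelium and immune cells, 7 stayed under 1 CPM in all copper and control libraries, and CDH5, CD3E and MS4A1 were at 0. The summed level of the 13 was 170.1 to 208.3 CPM in the controls of set 1 against 138.2 to 149.9 CPM at 25 µM, and 63.89 to 89.02 CPM against 36.56 to 40.61 CPM in set 2. DCN, a matrix proteoglycan, reached 136.5 CPM and CD14, a lipopolysaccharide receptor, 75.04 CPM, and no other marker passed 6.121 CPM. Both tested members that fell at 2.5 µM were these 2, and CD14 alone fell at 25 µM. Their part in the results was not tested.

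More genes differed from the controls at each higher copper dose. At 25 µM, 757 genes were higher (5.64% of those tested) and 636 lower (4.74%) at an adjusted p under 0.05. At 2.5 µM, 436 were higher (3.25%) and 417 lower (3.11%). The counts fell to 117 (0.872%) and 104 (0.775%) at 0.25 µM and to 11 (0.0819%) and 4 (0.0298%) at 0.025 µM. The share of higher calls differed with the scaling of library sizes and in DESeq2, which also changes the dispersion and the test. Under relative log expression (RLE) in place of TMM scaling, 84 of 207 calls at 0.25 µM were higher (40.58%, against 52.94%). At 0.025 µM RLE gave 9 of 14 higher (64.29%, against 73.33%). DESeq2 called 431 of 1070 higher at 2.5 µM (40.28%, against 51.11%), 170 of 457 at 0.25 µM (37.2%) and 36 of 96 at 0.025 µM (37.5%). The doses share their controls, so calls at different doses are not independent. Over all genes the median log2 fold change stayed within 0.01 of 0 at every dose.

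A linear trend over the means of the 4 doses was called for 324 rising (2.41%) and 327 falling genes (2.44%). The control mean took no part in this contrast, although the control libraries were in the fit. Neighbouring doses compared directly gave 91 higher (0.678%) and 67 lower genes (0.499%) at 25 against 2.5 µM, and 18 higher (0.134%) and 16 lower (0.119%) at 2.5 against 0.25 µM. The 158 calls at 25 against 2.5 µM fell to 7 without copper replicate 1, to 8 without replicate 2, to 4 in set 2 alone and to 11 without the term for the set. Between 0.25 and 0.025 µM, edgeR and DESeq2 each called 0 genes (0%), and edgeR had 167 at an unadjusted p under 0.05. These 167 are a smaller share of the genes tested than 0.05, and 0 calls do not show that the 2 doses were alike.

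Other metals at the lowest dose served as a second reference. The 16 libraries of arsenic, cadmium, lead and mercury at 0.025 µM, pooled against the controls, gave 7 called genes (0.0521%) and 1009 at an unadjusted p under 0.05. This reference was chosen after the data were seen. Copper set against these 16 libraries gave 689 higher (5.13%) and 524 lower genes (3.9%) at 25 µM, 261 (1.94%) and 266 (1.98%) at 2.5 µM, and 32 in all (0.238%) at 0.25 µM. At 0.025 µM edgeR called 0 (0%), with 685 at an unadjusted p under 0.05, and DESeq2 was not run on this reference.

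**Figure D1:**
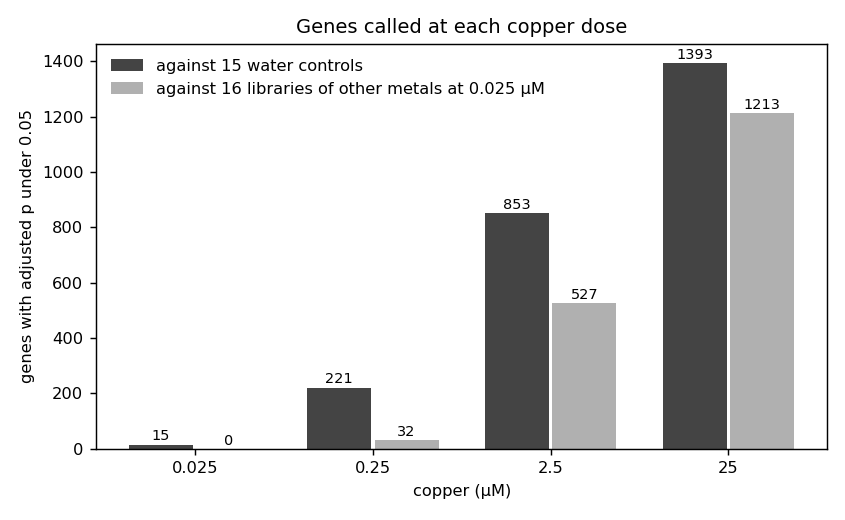
Number of genes with an adjusted p under 0.05 (linear axis) at each copper dose in µM, against the 15 water controls (dark bars) and against 16 libraries of other metals at 0.025 µM (light bars). Counts against water fell from 1393 at 25 µM to 15 at 0.025 µM, and against the other metals from 1213 to 0.

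The gene list with the largest share of called members at 25 µM held targets of NRF2. Of 32 listed targets, all of which were tested, 29 rose and none fell at 25 µM, 20 rose at 2.5 µM and 6 at 0.25 µM. At 0.025 µM edgeR and DESeq2 each called 0, with 2 higher and 1 lower at an unadjusted p under 0.05 in edgeR. The median log2 fold change of the list was 0.89, 0.45, 0.16 and 0.02 from the highest dose to the lowest, beside values within 0.01 of 0 for all genes. In 25 of the 32, all 4 libraries at 25 µM lay above the highest control of their own set, which was true of 2.62% of all genes. The 3 not called were TKT, BLVRB and ALDH3A1. Set 1 alone gave 28 higher and 1 lower (backgrounds 5.77% and 5.1%), and set 2 alone 19 higher and 0 lower (backgrounds 1.47% and 0.919%). Against the other metals at 0.025 µM, 31 rose at 25 µM and 23 at 2.5 µM. The trend over the copper doses was called for 28 rising members and no falling one.

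NQO1 (GRCh38, chromosome 16, 69709401 to 69726560), a quinone reductase, shows the grading with dose. It lay at 567 to 629 CPM (median 614) in the controls of set 1 and 566 to 706 CPM (median 668) in those of set 2. Copper brought it to 1659, 1583, 1325 and 1275 CPM in replicates 1 to 4 at 25 µM and to 1078, 1096, 1058 and 1091 CPM at 2.5 µM. At 0.25 µM it was at 785, 821, 715 and 816 CPM, and at 0.025 µM at 688, 619, 679.8 and 758 CPM. All 4 libraries exceeded every control of their set at the 3 upper doses, and 2 did at the lowest. The log2 fold changes were 1.22 ± 0.07 (SE, n = 4 copper and 15 control libraries), 0.78 ± 0.07, 0.32 ± 0.07 and 0.12 ± 0.07, with adjusted p of 3.07e-29, 4.6e-16, 0.00435 and 0.664. Over the 4 doses NQO1 rose by 0.38 ± 0.03 log2 units per 10-fold of dose.

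The aldo-keto reductases AKR1C1, AKR1C2 and AKR1C3, which reduce steroids and lipid aldehydes and lie side by side on chromosome 10, had the 3 rising trends with the smallest p. AKR1C2 (chromosome 10, 4987775 to 5018000) was at 3232, 3112, 1295 and 1371 CPM at 25 µM, above 609 to 775 CPM (median 656) and 182 to 301 CPM (median 269.7) in the controls of the 2 sets. Its log2 fold change was 2.26 ± 0.11 at 25 µM, 1.52 ± 0.12 at 2.5 µM (adjusted p = 6.38e-19) and 0.29 ± 0.12 at 0.25 µM (adjusted p = 0.288). AKR1C1 reached 2.41 ± 0.14 and AKR1C3 1.42 ± 0.10 at 25 µM. The sequences of these genes are close, and how reads shared between them were counted is not stated, so the split among the 3 is uncertain. Their calls began at 2.5 µM, while NQO1, GCLM, TXNRD1, SLC7A11, FTL and TRIM16L were called at 0.25 µM too.

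Several NRF2 targets serve the supply of glutathione and thioredoxin. SLC7A11, the cystine importer, was at 147, 134, 127 and 140.1 CPM at 25 µM, against 13.4 to 25.2 CPM (median 21.8) and 26.3 to 62.7 CPM (median 38.5) in the 2 control sets, and no copper library overlapped its controls. Its log2 fold change was 2.29 ± 0.17, 1.64 ± 0.17 and 0.78 ± 0.18 at the 3 upper doses (adjusted p = 1.12e-20, 2.62e-12 and 0.00943). GCLM and GCLC, the 2 subunits of the enzyme that starts glutathione synthesis, rose by 1.33 ± 0.10 and 0.87 ± 0.10 at 25 µM. TXNRD1, which recycles thioredoxin, rose by 1.20 ± 0.09 at 25 µM, 0.83 ± 0.10 at 2.5 µM and 0.35 ± 0.10 at 0.25 µM (adjusted p = 4.9e-19, 1.24e-10 and 0.042). PGD, a pentose phosphate enzyme that supplies NADPH, rose less, by 0.57 ± 0.06.

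The promoters of GCLM and TXNRD1 are shown because both genes passed the test at 3 doses and hold the core of the antioxidant response element (TGACNNNGC, searched on both strands), the motif that NRF2 binds. Each window runs from 250 bases before the RefSeq gene start to 50 after it (GRCh38.p14), is written 5′ to 3′ on the strand of the gene, and has the motif in capitals. The GCLM window (chr1:93909381-93909680, minus strand) has 1 match and the first TXNRD1 window listed (chr12:104215529-104215828, plus strand) has 2. A second TXNRD1 window (chr12:104286782-104287081, plus strand) has 1 match and is not shown.
GCLM: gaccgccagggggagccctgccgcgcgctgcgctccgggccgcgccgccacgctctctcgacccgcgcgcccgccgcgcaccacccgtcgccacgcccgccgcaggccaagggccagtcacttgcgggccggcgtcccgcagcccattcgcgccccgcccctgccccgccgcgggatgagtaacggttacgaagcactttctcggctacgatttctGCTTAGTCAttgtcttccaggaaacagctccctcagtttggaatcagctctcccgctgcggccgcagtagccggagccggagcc
TXNRD1: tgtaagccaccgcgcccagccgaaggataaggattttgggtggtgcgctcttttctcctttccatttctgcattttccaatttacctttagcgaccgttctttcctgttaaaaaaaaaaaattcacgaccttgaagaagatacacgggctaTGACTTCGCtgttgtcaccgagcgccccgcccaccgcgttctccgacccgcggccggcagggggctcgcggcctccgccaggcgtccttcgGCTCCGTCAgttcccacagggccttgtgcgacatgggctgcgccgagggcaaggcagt
Of the 32 targets, 22 matched a promoter entry, with 28 windows, and 7 of these windows (25%) held the core. The windows of NQO1, FTL, AKR1C1, AKR1C2, AKR1C3 and GCLC, which also rose, held 0 matches. The share was 13.3% of all 35116 windows of that length. A match describes these letters alone.

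HMOX1 (chromosome 22, 35381096 to 35394207), the heme-degrading enzyme, rose in set 1. It was at 39.3, 38.6, 6.29 and 6.26 CPM in replicates 1 to 4 at 25 µM, so the 2 libraries of set 1 stood above their controls (1.85 to 4.71 CPM, median 3.46) and the 2 of set 2 lay within theirs (1.43 to 12.5 CPM, median 5.13). The pooled log2 fold change of 2.53 ± 0.30 (adjusted p = 6.56e-11) joins 3.48 in set 1 and 0.15 in set 2 (adjusted p = 1.44e-23 and 0.949). The difference between sets was itself called (set 2 minus set 1, -3.31 ± 0.43, adjusted p = 1.51e-07). At 2.5 µM it was 0.39 ± 0.36 (adjusted p = 0.678), and the step from 2.5 to 25 µM was 2.14 ± 0.39 (adjusted p = 0.000528).

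Both ferritin chains, which store iron, rose at 25 µM. FTL, the light chain, was at 4775, 4875, 2714 and 2912 CPM at 25 µM against 1361 to 1745 CPM (median 1512) and 926 to 1239 CPM (median 1163) in the control sets. Its log2 fold change was 1.52 ± 0.08, 1.01 ± 0.09 and 0.38 ± 0.09 at the 3 upper doses (adjusted p = 1.17e-28, 2.33e-16 and 0.00943). FTH1, the heavy chain, rose by 0.76 ± 0.08 at 25 µM only among the 4 doses, and was 0.22 ± 0.09 at 2.5 µM (adjusted p = 0.125). Of 14 tested genes of iron uptake, storage and export, 3 rose (FTL, FTH1 and HMOX1) and 1 fell (the iron importer SLC11A2, -0.45 ± 0.15) at 25 µM. TFRC, the transferrin receptor, was 0.19 ± 0.11 (adjusted p = 0.331). FTLP3, a processed copy of FTL, also rose (1.88 ± 0.22), and reads of the 2 may be mixed.

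**Figure D2:**
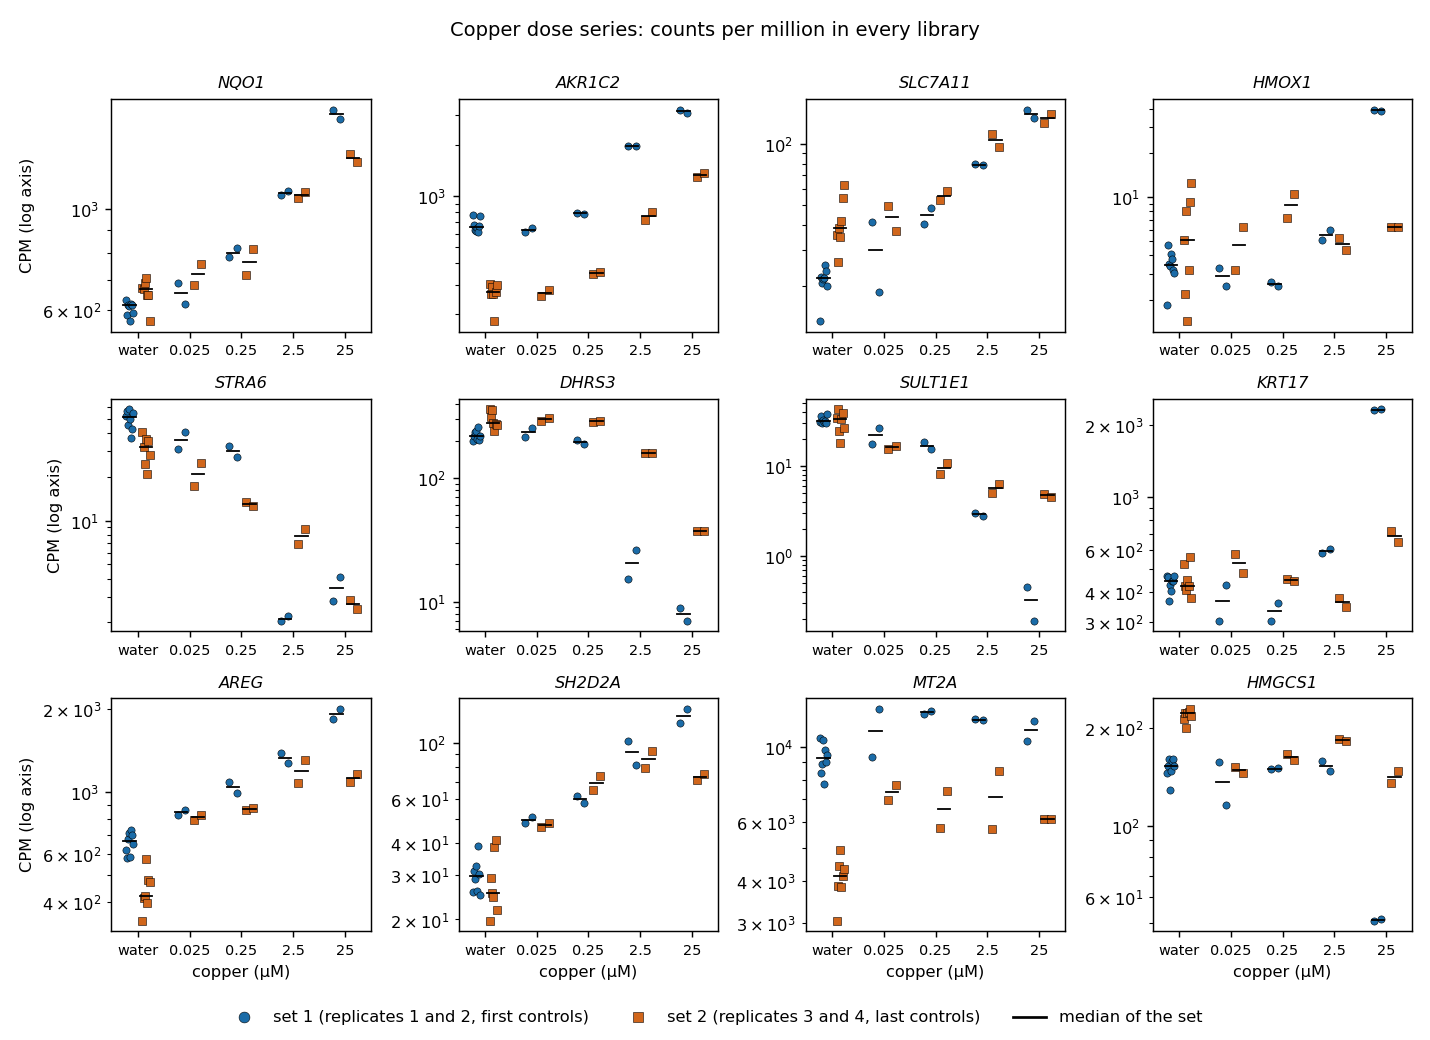
CPM (log axis) of 12 genes in every library by copper dose in µM, with circles for set 1, squares for set 2 and a bar at the median of each set. NQO1, AKR1C2 and SLC7A11 climb in both sets from 0.25 or 2.5 µM, STRA6, DHRS3 and SULT1E1 fall, and HMOX1 at 25 µM is high only in the 2 libraries of set 1.

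Among the 10 named genes with the highest fold changes at 25 µM, 4 stood outside the NRF2 list and the ferritin copies, namely SDCBP2, a PDZ scaffold protein, CYP4F11, a fatty acid hydroxylase, INSC, an adaptor of spindle orientation, and KRT17. SDCBP2 was at 128, 103, 47.4 and 31.4 CPM at 25 µM, against 6.91 to 15.9 CPM (median 13.97) and 0 to 18.8 CPM (median 12.6) in the controls, with all 4 libraries above them (2.67 ± 0.24, adjusted p = 2.37e-16). It rose at 2.5 µM as well (1.19 ± 0.25). CYP4F11 was at 58.7, 44.97, 35.4 and 38.7 CPM, against 4.36 to 10.5 CPM (median 7.29) and 5.20 to 15.3 CPM (median 8.52), and rose by 2.51 ± 0.18 at 25 µM and 1.48 ± 0.19 at 2.5 µM. INSC rose by 2.04 ± 0.28 at 25 µM and 1.28 ± 0.29 at 2.5 µM. CES1, a carboxylesterase, had its highest value at 2.5 µM (1.83 ± 0.22) and was 1.66 ± 0.22 at 25 µM, with a direct difference of -0.17 ± 0.29 (adjusted p = 0.968).

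Of 15 tested of 17 listed genes of copper uptake, chaperones and export, 1 rose and 1 fell at 25 µM, shares near those over all genes (5.64% and 4.74%, list median 0.01). The riser was COX17, the chaperone of cytochrome c oxidase, at 37.6, 43.05, 38.1 and 45.5 CPM (0.43 ± 0.15, adjusted p = 0.0425), and it lost its call under RLE scaling. Its values were inside the controls of set 1 (33.7 to 50.1 CPM, median 39.7) and above those of set 2 (15.3 to 35.04 CPM, median 19.1). SLC25A3, which carries copper and phosphate into mitochondria, fell by 0.28 ± 0.06 on the log2 scale, with all 4 libraries below their controls. The importer SLC31A1 was -0.08 ± 0.12, the chaperones ATOX1 and CCS 0.09 ± 0.13 and -0.20 ± 0.17, and the exporter ATP7A 0.55 ± 0.37 at 25 µM, none past the threshold (adjusted p from 0.44 to 0.788). ATP7A had only 3.73, 8.19, 3.37 and 3.17 CPM, where the depth cannot show a small difference.

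Among copper-dependent enzymes, 2 that crosslink collagen fell. LOX was at 55.1, 62.4, 31.7 and 36.7 CPM at 25 µM, against 105 to 142 CPM (median 120.2) and 41.8 to 81.5 CPM (median 60.4) in the 2 control sets. LOXL2 was at 44.9, 54.8, 64.99 and 69.03 CPM, against 118 to 133 CPM (median 123) and 78.2 to 150.0 CPM (median 116). For both genes all 4 libraries lay below the controls of their set. LOX fell at 25, 2.5 and 0.25 µM (-0.93 ± 0.16, -1.06 ± 0.16 and -0.58 ± 0.15) and LOXL2 at 25 and 2.5 µM (-1.06 ± 0.13 and -0.60 ± 0.12). MT-CO2, the mitochondrially coded subunit that holds the CuA site, fell by 0.25 ± 0.07 on the log2 scale, and SOD1, copper-zinc superoxide dismutase, rose by 0.23 ± 0.07. In all, 1 of 9 tested of 19 listed enzymes rose and 3 fell at 25 µM, 4 under RLE scaling. Of 17 tested zinc transporters, SLC39A7 and SLC39A13 rose at 25 µM (0.30 ± 0.10 and 0.55 ± 0.10) and SLC39A9 fell at 2.5 µM (-0.43 ± 0.14). The shares over all genes were 5.64% higher and 4.74% lower at 25 µM, and 3.11% lower at 2.5 µM.

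No tested metallothionein rose with dose. Of 11 listed genes 4 were abundant enough to test, and 2 of these fell along the doses. MT2A (chromosome 16, 56608584 to 56609497) was at 10430, 11930, 6131 and 6119 CPM at 25 µM and 9313, 12940, 6970 and 7713 CPM at 0.025 µM. The controls held 7786 to 10610 CPM (median 9252) in set 1 and 3059 to 4941 CPM (median 4148) in set 2. Its log2 fold change was 0.40 ± 0.10, 0.56 ± 0.10, 0.54 ± 0.10 and 0.53 ± 0.10 from the highest dose to the lowest (adjusted p = 0.002, 9.81e-06, 0.000276 and 0.00278), and the trend was -0.04 ± 0.04 per 10-fold of dose (adjusted p = 0.778). MT1E was 0.02 ± 0.12 at 25 µM (adjusted p = 0.961) and 0.56 ± 0.12 at 0.025 µM (adjusted p = 0.0224), and it fell with dose by 0.17 ± 0.05 per 10-fold (adjusted p = 0.0226). Against the other metals at 0.025 µM, MT2A was 0.19 at 25 µM (adjusted p = 0.278) and 0.32 at 0.025 µM (adjusted p = 0.845). Of the 4 tested, that reference gave 1 higher at 2.5 µM and 1 lower at 25 µM, and set 1 alone against water gave 1 higher and 2 lower at 25 µM. MT1X and MT1F were not called against water at any dose, and MT1X fell along the doses (adjusted p = 0.0326). The list median at 25 µM was -0.08, with -0.43 in set 1 alone and 0.48 in set 2 alone. The sequences of these genes are nearly alike, so the split among them is uncertain. SLC30A1, the zinc exporter under the same factor MTF1, was 0.04 ± 0.13 at 25 µM (adjusted p = 0.929).

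The MT2A promoter is shown because of its metal response elements, the motif that MTF1 binds, in a gene whose trend with the copper dose did not pass the test. The window (chr16:56608334-56608633, plus strand, GRCh38.p14, RefSeq) has 8 matches to the core (TGCACNC or TGCGCNC, both strands) in capitals.
MT2A: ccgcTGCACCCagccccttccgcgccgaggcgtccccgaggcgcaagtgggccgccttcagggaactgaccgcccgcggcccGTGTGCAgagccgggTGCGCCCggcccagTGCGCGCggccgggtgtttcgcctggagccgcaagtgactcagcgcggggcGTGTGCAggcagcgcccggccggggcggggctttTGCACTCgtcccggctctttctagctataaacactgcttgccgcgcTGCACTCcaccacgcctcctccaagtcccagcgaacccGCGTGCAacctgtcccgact
The same core was found in 29.6% of all 35116 windows and in the windows of all 5 metallothioneins with an entry. It was also in 14 of the 28 windows of NRF2 targets (50%). The antioxidant core was in 3 of the 5 metallothionein windows (60%), that of MT2A among them.

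The 3 named genes with the lowest fold changes at 25 µM were STRA6, DHRS3 and SULT1E1. DHRS3, which reduces retinaldehyde to retinol, was at 8.92, 6.97, 37.4 and 37.5 CPM at 25 µM and 15.1, 26.3, 159.6 and 159 CPM at 2.5 µM, against 201 to 258 CPM (median 218) in the controls of set 1 and 239.9 to 359 CPM (median 281) in those of set 2. At 0.25 µM it was at 203, 188, 286 and 289.6 CPM, inside or next to the range of the controls. All libraries at 25 and 2.5 µM lay below their controls, with those of set 1 at lower levels. The log2 fold change was -3.64 ± 0.25 at 25 µM (adjusted p = 9.16e-23), -1.69 ± 0.21 at 2.5 µM (adjusted p = 2.83e-09) and -0.12 ± 0.19 at 0.25 µM (adjusted p = 0.896). Within sets, 25 µM gave -4.78 and -3.002, a difference of 1.79 ± 0.18 (adjusted p = 6.15e-12).

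STRA6, the membrane receptor for retinol-binding protein, was at 2.81, 4.09, 2.86 and 2.47 CPM at 25 µM, 2.05, 2.20, 6.86 and 8.78 CPM at 2.5 µM and 32.6, 27.4, 13.5 and 12.6 CPM at 0.25 µM. Its controls had 36.7 to 57.9 CPM (median 51.1) in set 1 and 20.9 to 40.5 CPM (median 31.99) in set 2, so all libraries at the 3 upper doses lay below their controls. The log2 fold change was -3.70 ± 0.37, -2.80 ± 0.34 and -0.96 ± 0.29 (adjusted p = 3.81e-14, 5.03e-10 and 0.0617). Of 14 tested genes of a retinoid list that was drawn up after these values were seen, 1 rose (RDH10, a retinol dehydrogenase) and 3 fell (STRA6, DHRS3 and RARRES1) at 25 µM, 5 under RLE scaling. The list is a description only.

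SULT1E1, the estrogen sulfotransferase, fell at the 3 upper doses. It was at 0.46, 0.192, 4.89 and 4.56 CPM at 25 µM, 3.01, 2.79, 5.06 and 6.29 CPM at 2.5 µM and 18.3, 15.4, 8.09 and 10.7 CPM at 0.25 µM, against 29.7 to 37.2 CPM (median 31.1) and 17.8 to 42.2 CPM (median 32.9) in the control sets. No library of these doses reached its controls. The log2 fold changes were -3.55 ± 0.39, -2.80 ± 0.36 and -1.30 ± 0.32 (adjusted p = 3.8e-12, 4.08e-09 and 0.0128). At 25 µM the sets differed here too, with -6.50 in set 1 and -2.72 in set 2 (difference 3.80 ± 0.52, adjusted p = 5.56e-07).

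Other genes among the 10 lowest at 25 µM fell at 2.5 µM too. EHF, an epithelial ETS factor, was -2.19 ± 0.34 at 25 µM and -2.19 ± 0.34 at 2.5 µM, and FBXO32, a ubiquitin ligase subunit, -2.09 ± 0.21 and -1.996 ± 0.21. SCNN1B, a subunit of the epithelial sodium channel, was -1.74 ± 0.27 and -1.71 ± 0.27, and EDN2, the peptide endothelin 2, -1.98 ± 0.35 and -1.51 ± 0.33. The 4 fell at both doses (adjusted p from 3.81e-14 to 0.000702). TNNI2, a troponin, went from -1.85 ± 0.38 at 2.5 µM to -2.86 ± 0.42 at 25 µM, and PDZK1IP1, a small membrane protein, from -1.76 ± 0.35 to -1.93 ± 0.36. ABCA6, a lipid transporter, fell at 25 µM (-1.72 ± 0.33) and was -0.79 ± 0.30 at 2.5 µM (adjusted p = 0.106).

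Of 27 tested ligands of the EGF receptor and genes of the ERK response, the kinase cascade below it, edgeR called 17 higher at 25 µM, 13 at 2.5 µM, 7 at 0.25 µM and 2 at 0.025 µM, and none lower (list medians 0.58, 0.48, 0.36 and 0.15). Members lower at an unadjusted p under 0.05 numbered 0 at 25 µM, 0 at 2.5 µM, 1 at 0.25 µM and 1 at 0.025 µM. At 0.25 µM DESeq2 called 8 higher and 1 lower, and set 1 alone 3 higher and 1 lower. Set 1 alone had 18 higher and set 2 alone 9 at 25 µM. AREG, the ligand amphiregulin, was at 1847, 2000, 1092 and 1166 CPM at 25 µM and 826, 865, 793 and 828 CPM at 0.025 µM, against 578 to 727 CPM (median 664) and 343 to 574 CPM (median 421) in the controls. All 4 libraries at every dose were above their controls. Its log2 fold change was 1.45 ± 0.10, 1.20 ± 0.11, 0.80 ± 0.11 and 0.59 ± 0.11 (adjusted p = 1.8e-21, 7.77e-16, 6.73e-07 and 0.00278). EREG and HBEGF, 2 more ligands, rose by 1.28 ± 0.19 and 1.03 ± 0.33 at 25 µM. The feedback genes DUSP6 and SPRY4 rose by 1.12 ± 0.12 and 1.51 ± 0.15 at 25 µM, and the AP-1 subunit FOSL1 by 0.94 ± 0.15. DUSP6 and SPRY4 were both called at 2.5 µM and not at 0.25 µM (adjusted p = 0.277 and 0.281).

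Both members called at 0.025 µM also rose with the other metals. AREG was 0.39 ± 0.07 and IER3, an early response gene, 0.51 ± 0.08 in the 16 libraries of other metals at 0.025 µM against the same controls (adjusted p = 0.00446 and 4.23e-05). Against those 16 libraries, AREG at copper 0.025 µM was 0.20 (adjusted p = 1), at 0.25 µM 0.41 (adjusted p = 0.0869) and at 25 µM 1.06 (adjusted p = 4.42e-14). With that reference the list had 14 higher and 0 lower members at 25 µM, 12 and 0 at 2.5 µM, 1 and 1 at 0.25 µM and none at 0.025 µM.

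Of 20 tested cytokines and other NF-κB targets, 9 were higher and 2 lower at both 25 and 2.5 µM, and 5 were higher at 0.25 µM (list medians 0.87, 0.88 and 0.72). CXCL8, a neutrophil chemokine, was at 269, 278, 71.4 and 146 CPM at 25 µM, against 68.9 to 96.6 CPM (median 84.9) and 18.8 to 55.8 CPM (median 33.8) in the controls, with all 4 libraries above (1.62 ± 0.23, adjusted p = 2.16e-08). CCL20, a chemokine, was 1.35 ± 0.21, 1.29 ± 0.21 and 1.11 ± 0.21 at the 3 upper doses, and CSF3, which drives granulocyte production, 0.90 ± 0.21, 1.29 ± 0.21 and 1.09 ± 0.21, all past the threshold. Set against the other metals at 0.025 µM, the list median at 25 µM was 0.13, with 6 higher and 2 lower, and CSF3 was 0.36 (adjusted p = 0.386). With that reference 5 were higher and 3 lower at 2.5 µM and edgeR called none at 0.25 µM. Set 2 alone against water gave 5 higher and none lower at 25 µM. LIF, a cytokine of the IL-6 family, was at 25.1, 27.6, 4.45 and 4.64 CPM at 25 µM against 1.36 to 3.60 CPM (median 2.59) and 1.06 to 4.99 CPM (median 2.39), with only the libraries of set 1 above their controls (2.69 ± 0.37). The difference between sets did not pass for LIF (adjusted p = 0.0882). SAA1 and SAA2, acute phase proteins with near-identical sequences, fell at 25 µM (-0.75 ± 0.23 and -1.35 ± 0.32). IL24 was at 137, 123, 2.86 and 4.17 CPM in replicates 1 to 4 at 25 µM, where controls reached at most 1.19 CPM in set 1 and 9.76 CPM in set 2, so only the libraries of set 1 stood above theirs, a difference between sets that passed (adjusted p = 0.00326).

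Keratins of the basal and stress-induced type rose at 25 µM, by more in set 1 than in set 2. KRT17 was at 2317, 2321, 723 and 646 CPM at 25 µM, against 366 to 469 CPM (median 445) and 379 to 558 CPM (median 425). All 4 libraries were above their controls, but the log2 fold change was 2.43 in set 1 and 0.59 in set 2 (pooled 1.81 ± 0.15, difference -1.82 ± 0.19, adjusted p = 5.76e-11). At 2.5 µM KRT17 was 0.12 ± 0.17 (adjusted p = 0.814), at 580, 604, 378 and 347 CPM in replicates 1 to 4. Both libraries of set 1 lay above their controls there, and both of set 2 below theirs. At the same dose KRT16 was at 22.4, 15.8, 6.91 and 6.17 CPM, above the controls of set 1 (at most 12.8 CPM) and among those of set 2. KRT16 was at 92.2, 79.8, 15.6 and 10.1 CPM at 25 µM, with 3.13 in set 1 and -0.12 in set 2, where the 2 libraries lay among their controls. KRT14 was 2.15 and 0.39 in the 2 sets, and KRT5 0.91 and 0.13. The difference between sets passed for KRT16, KRT14 and KRT5 (adjusted p = 0.000492, 3.06e-05 and 0.000121). Reads of KRT14, KRT16 and KRT17 may be shared, as their sequences are close. Of 8 basal markers 3 rose and 1 (CDH3, P-cadherin) fell at 25 µM, beside 5.64% and 4.74% of all genes. Among these 8 markers, 2.5 and 0.25 µM had more falls than rises in the fit of both sets. At an unadjusted p under 0.05 in edgeR, 1 of the 8 was higher and 4 were lower at 2.5 µM. At 0.25 µM 0 were higher and 4 lower (lowest adjusted p = 0.00277). Over all 13424 genes, 2235 and 1597 had such an unadjusted p at these 2 doses. Of 9 tested squamous differentiation genes PI3, a protease inhibitor, and SPRR2D rose and TGM1, a transglutaminase, fell (1.68 ± 0.37 for PI3 and -1.44 ± 0.23 for TGM1), with SPRR2D near 0 in the controls. DESeq2 called 1 of these 9 higher at 25 µM, set 2 alone none, and the comparison with the other metals at 0.025 µM none. PI3 was 0.91 ± 0.28 in those other metals against water.

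Luminal markers fell, with 5 of 7 tested lower at 25 µM, 4 at 2.5 µM and 1 at 0.25 µM (list medians -0.82, -1.004 and -0.44). Set 2 alone had 1 lower at 25 µM and 2 at 2.5 µM. KRT8 was at 274, 268, 261 and 212 CPM at 25 µM and 244, 241, 243 and 259 CPM at 2.5 µM, against 419 to 482 CPM (median 449.5) and 320.2 to 513 CPM (median 387) in the controls, with no overlap. It fell at the 3 upper doses (-0.75 ± 0.09, -0.78 ± 0.09 and -0.37 ± 0.09). EPCAM, an adhesion protein, was -0.82 ± 0.18 and -1.004 ± 0.18, the mucin MUC1 -0.84 ± 0.23 and -1.39 ± 0.24, and ELF3, an epithelial ETS factor, -3.44 ± 0.77 and -3.46 ± 0.77 at the 2 upper doses. ELF3 had under 1 CPM in every library at 25 µM. Of 7 mesenchymal markers SNAI2, a repressor of E-cadherin, rose at 25 µM (0.80 ± 0.14), and it rose with VIM, vimentin, at 2.5 µM. Over all genes 5.64% rose at 25 µM and 3.25% at 2.5 µM. In bulk libraries, fewer cells with a marker and less of its RNA per cell cannot be told apart.

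LAMB3 and LAMA3, chains of the laminin that anchors basal epithelial cells, rose at 25 µM. LAMB3 was at 2403, 2392, 1123 and 1391 CPM at 25 µM, against 555 to 609 CPM (median 582) and 371 to 646 CPM (median 453), with every library above its controls (1.78 ± 0.13, adjusted p = 1.04e-20). LAMA3 rose by 0.76 ± 0.12. Of 22 tested matrix and adhesion genes, 7 rose and 1 (LAMA5) fell at 25 µM (list median 0.15), with THBS1, thrombospondin, at 1.52 ± 0.14 and FN1, fibronectin, at 1.05 ± 0.16.

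Genes of sterol and fatty acid synthesis fell at the highest dose. Of 29 tested, 21 fell and none rose at 25 µM (list median -0.50), and LSS, a cyclase of sterol synthesis, was the only one that edgeR called lower at 2.5 µM (median -0.12), where DESeq2 called 3. Against the other metals at 0.025 µM, 17 fell at 25 µM and edgeR called none at 2.5 µM. The step from 2.5 to 25 µM was itself called as a fall for 10 members and as a rise for none, with 18 falls in set 1 alone and none in set 2 alone. At 0.25 and 0.025 µM edgeR called 0, with 4 and 9 lower at an unadjusted p under 0.05, and DESeq2 called 0 and 1. In 11 of the 29, all 4 libraries at 25 µM lay below the lowest control of their set, against 1.48% of all genes. HMGCS1, an early enzyme of the pathway, was at 50.9, 51.4, 136 and 148 CPM at 25 µM, against 129 to 161 CPM (median 153) and 201 to 229 CPM (median 222). It was below all controls in each set, with -1.55 in set 1 and -0.63 in set 2 (pooled -0.97 ± 0.14). The step of HMGCS1 from 2.5 to 25 µM was -0.87 ± 0.16 (adjusted p = 0.000617). SCD, the stearoyl-CoA desaturase, was -1.69 and -0.49 in the 2 sets (difference 1.22 ± 0.15, adjusted p = 1.38e-08). Set 1 alone had 23 lower members and set 2 alone 5.

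Genes of glycolysis and the hypoxia response were lower at 25 µM in 12 of 24 and higher in none (median -0.30). Set 1 alone had 11 lower and set 2 alone 4. CA9, a carbonic anhydrase, was at 0.092, 0, 0.127 and 0 CPM at 25 µM and 3.97, 4.53, 0.189 and 0.712 CPM at 2.5 µM, against 17.1 to 28.6 CPM (median 21.7) and 1.27 to 10.1 CPM (median 4.64) in the controls (adjusted p = 7.54e-12 and 8.78e-05). All 8 copper libraries lay below their controls. CA9 summed to only 4 counts at 25 µM, so no fold is given. LDHA, lactate dehydrogenase, was at 3456, 3272, 3161 and 3282 CPM, below all controls of set 1 (4501 to 5122 CPM, median 4947) and of set 2 (3776 to 4053 CPM, median 3972), a change of -0.40 ± 0.06. Of 13 mitochondrially encoded genes 8 fell at 25 µM, by 0.23 to 0.34 on the log2 scale. These genes made up 7.352% to 9.781% of counts at 25 µM, 10.4% to 11.42% in the controls of set 1 and 7.872% to 9.095% in those of set 2. Set 2 alone had 1 lower. Of 15 nuclear genes of cytochrome c oxidase and its assembly edgeR and DESeq2 called 0, with 2 lower at an unadjusted p under 0.05. Of 13 genes of lipoic acid synthesis and lipoylated enzymes, the targets named for copper-driven cell death, 1 fell (PDHB, -0.27 ± 0.08). Over all genes 4.74% fell at that dose.

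**Figure D3:**
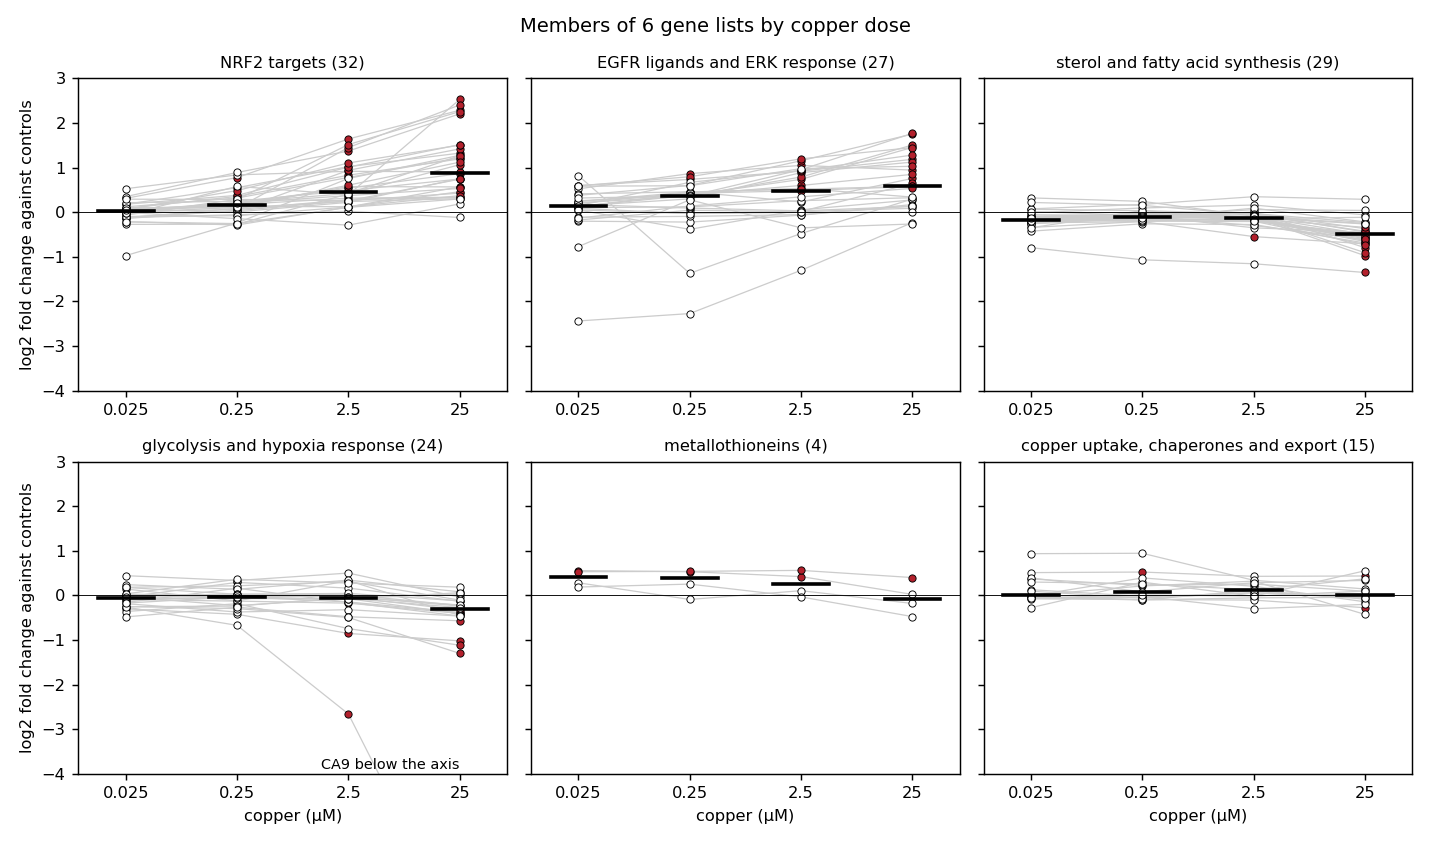
Log2 fold change against the water controls (vertical axis) of every tested member of 6 gene lists by copper dose in µM, with filled points for members called at an adjusted p under 0.05, open points for the others and a bar at the list median. The median of the NRF2 targets climbs from 0.02 to 0.89 and that of the EGFR and ERK list from 0.15 to 0.58, sterol genes drop to -0.50 at 25 µM, and CA9 lies below the axis at 25 µM.

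Fewer members of other stress programmes passed. Over all genes 5.64% rose and 4.74% fell at 25 µM, and 3.25% rose at 2.5 µM. Of 24 heat shock genes, HSPA6, HSPH1, HSPA4 and FKBP4 rose and HSPD1 fell at 25 µM (list median 0.07), and 9 rose at 2.5 µM, or 5 under RLE scaling, 2 against the other metals at 0.025 µM and 1 in set 2 alone. HSPA1A, the main inducible HSP70, was 0.05 ± 0.23 at 25 µM (adjusted p = 0.948) and DNAJB1, its partner, -0.07 ± 0.11 (adjusted p = 0.819). HSPA8, the constitutive HSP70, was 0.02 ± 0.06 at 25 µM (adjusted p = 0.929). Reads of HSPA1A may be shared with HSPA1B. Of 31 proteasome subunits PSMB7 rose and PSMB4 fell at 25 µM, smaller shares than over all genes. At 2.5 µM 7 rose, or 2 under RLE scaling and 1 in set 2 alone. Among 27 targets of ATF4, the factor of the integrated stress response, 5 rose (ATF3, DDIT3, CHAC1, CEBPB and STC2) and 5 fell (DDIT4, PSAT1, PHGDH, SHMT2 and SLC7A5). DDIT3, a factor of stress-induced cell death, and CHAC1, which degrades glutathione, rose (0.97 ± 0.25 and 1.26 ± 0.41), and the serine enzyme PHGDH fell (-0.47 ± 0.09). Of 17 chaperones of the endoplasmic reticulum 6 rose, with DNAJB9 at 0.98 ± 0.17 and HSPA5, the main one, at 0.38 ± 0.09. Under RLE scaling 5 rose and 1 fell. Set 2 alone had none called. Of 22 further genes of glutathione, thioredoxin and peroxide removal, 5 rose (GLRX, GLRX2, SOD1, GSTO1 and MGST1) and 3 fell (GPX4, PRDX5 and CAT) at 25 µM, with 1.08 ± 0.14 for glutaredoxin GLRX and -0.35 ± 0.10 for GPX4, which reduces lipid peroxides.

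Of 26 genes of DNA replication, 4 rose at 25 µM (E2F1, CCNE1, UHRF1 and CHAF1A), 7 at 2.5 µM and 4 at 0.25 µM, with none lower in that fit and 1 lower at 25 µM in DESeq2. Against the other metals at 0.025 µM, edgeR called 2 higher and 1 lower at 25 µM, 4 higher at 2.5 µM and none at 0.25 µM, and set 1 alone against water gave 2 higher and 3 lower at 25 µM. Of 24 mitotic genes CCNB2, CENPF and KIF20A fell at 25 µM (list median -0.13), while AURKB and UBE2C rose at 2.5 µM. The shares over all genes were 5.64% higher and 4.74% lower at 25 µM. At 2.5 µM they were 3.25% and 3.11%, and 0.872% were higher at 0.25 µM. Set 1 alone had 13 lower mitotic genes at 25 µM (list median -0.40) and set 2 alone none (median 0.02). Of 21 targets of p53, 5 rose (CDKN1A, TP53I3, PLK3, PHLDA3 and AEN) and CCNG1 fell at 25 µM, and 4 fell at 2.5 µM (ZMAT3, RRM2B, BTG2 and CCNG1). Set 2 alone called none of the p53 targets at 25 µM. CDKN1A, the cell cycle inhibitor p21, was at 492, 411, 228 and 200.1 CPM at 25 µM, against 169 to 202 CPM (median 191) and 168 to 231 CPM (median 204) in the controls. It rose in set 1 (1.29) and was 0.09 in set 2 (difference -1.18 ± 0.16, adjusted p = 2.62e-07). MDM2, another p53 target, was -0.10 ± 0.11 (adjusted p = 0.702). Of 16 interferon-stimulated genes 1 rose and 1 (IFI44L) fell at 25 µM, shares near those over all genes (5.64% and 4.74%). Of 59 ribosomal protein genes RPL3, RPL22, RPS2, RPS3 and RPS6 fell, and 7 fell under RLE scaling. List members without values here, and those outside the rule for named genes, were named after their values were seen.

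At 0.025 µM the 11 higher genes were ACTB, ALYREF, AREG, C11orf24, IER3, MT1E, MT2A, S100A11, SH2D2A, TUBA4A and UBE2C, and the 4 lower ones C11orf54, DSP, NORAD and TSC22D3. Set 1 alone called 0 genes at this dose (475 at an unadjusted p under 0.05). Set 2 alone, with its shallow controls, called 143, so that 0 were called in both. Without the term for the set edgeR called 0 (722 at an unadjusted p under 0.05). SH2D2A, a T cell adaptor gene, was at 48.4, 50.8, 46.6 and 47.97 CPM at 0.025 µM and 61.7, 57.8, 65.2 and 73.6 CPM at 0.25 µM, against 25.1 to 39.1 CPM (median 29.6) and 19.8 to 41.3 CPM (median 25.6) in the controls. All 8 libraries of these doses lay above the controls of their set. The log2 fold change went from 0.71 ± 0.16 (adjusted p = 0.0251) through 1.12 ± 0.15 and 1.59 ± 0.15 to 1.78 ± 0.15 at 25 µM, with a trend of 0.37 ± 0.06 per 10-fold of dose. In the other metals at 0.025 µM it was 0.26 ± 0.11 (adjusted p = 0.525). Against those, it was 0.44 at copper 0.025 µM (adjusted p = 0.857) and 0.85 at 0.25 µM (adjusted p = 0.00145).

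At 0.025 µM the rule also named ALYREF, an RNA export factor (0.68 ± 0.15), TSC22D3, a glucocorticoid-induced gene (-0.83 ± 0.19), and DSP, a desmosome protein (-0.53 ± 0.11). TSC22D3 fell in the other metals at that dose too (-0.55 ± 0.11, adjusted p = 0.0127), while ALYREF and DSP were 0.37 ± 0.10 and -0.29 ± 0.07 there, short of the threshold (adjusted p = 0.132 and 0.0801). At 0.25 µM, CDKN1C, a cell cycle inhibitor, was -1.73 ± 0.30 and EHF -1.31 ± 0.32. CDKN1C was at -2.16 ± 0.31 at 2.5 µM and -0.92 ± 0.29 at 25 µM, and the difference between these 2 doses was 1.24 ± 0.35 (adjusted p = 0.0496).

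Some genes changed between 2.5 and 25 µM. STC1, the hormone stanniocalcin 1, was at 9.38, 10.2, 8.70 and 6.88 CPM at 25 µM and 35.8, 31.5, 21.5 and 21.6 CPM at 2.5 µM, a step of -1.62 ± 0.25 (adjusted p = 9.41e-06) with no overlap between the doses. CD14 stepped by -0.89 ± 0.22 and DHRS3 by -1.96 ± 0.25. S100P fell at 2.5 µM (-1.39 ± 0.31, adjusted p = 0.000922) and was 0.37 ± 0.27 at 25 µM (adjusted p = 0.478). PPL, the desmosomal plakin, and ETNK2, an ethanolamine kinase, had lower values at 2.5 µM (-2.40 ± 0.38 and -2.31 ± 0.26) than at 25 µM (-1.19 ± 0.35 and -1.67 ± 0.25), and the differences between the doses did not pass (adjusted p = 0.184 and 0.424). SAMSN1, an adaptor protein, rose by 1.64 ± 0.27 at 2.5 µM. The 3 falling trends with the smallest p were DHRS3 (-1.26 ± 0.08 per 10-fold of dose), the matrix protein TINAGL1 (-0.40 ± 0.04) and the prostaglandin E synthase PTGES (-0.30 ± 0.03).

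The response at 25 µM was compared between the sets. Set 1 alone called 1463 genes and set 2 alone 319, and 233 were called in both (15.93% of the first and 73.04% of the second), 231 of them in the same direction. A test of the difference between sets called 67 genes at 25 µM (0.499%) and 8 at 2.5 µM (0.0596%). The size was larger in set 1 for 55 of the 67, and 26 had opposite signs in the sets. The 4 with the smallest p were DHRS3, KRT17, SCD and HMOX1. The labels do not say how the sets were made, and their depth and expression differ together, so the part of either in these differences was not tested.

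**Figure D4:**
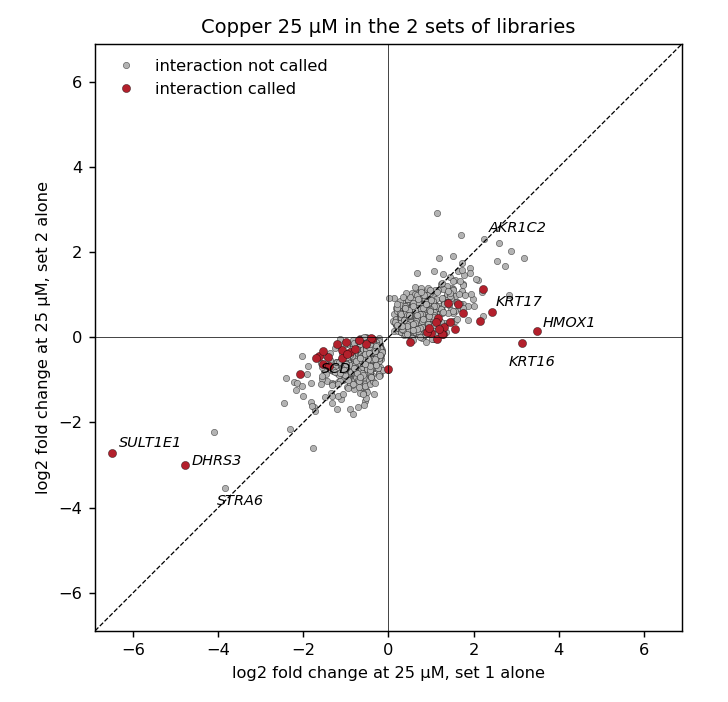
Log2 fold change at copper 25 µM in set 1 alone (horizontal axis) against set 2 alone (vertical axis) for 1237 genes called in the joint fit with a mean log2 CPM of at least 3, with red points where the difference between sets was called and a dashed line of equal change. Genes called in the joint fit are by that choice mostly of 1 sign in both sets, and HMOX1 and KRT16 lie near 0 in set 2.

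Lead and mercury at 25 µM, 4 libraries each on the same plate, were the nearest comparison. Copper differed from lead in 152 higher (1.13%) and 161 lower genes (1.2%), and from mercury in 371 higher (2.76%) and 320 lower genes (2.38%). DHRS3 was at 379, 407, 364 and 351 CPM with lead and 231, 222, 342 and 357 CPM with mercury, where copper had at most 37.5 CPM. The log2 differences were -4.21 ± 0.27 against lead and -3.77 ± 0.27 against mercury. STRA6 differed by -3.17 ± 0.39 and -3.06 ± 0.39, and SULT1E1 by -2.09 ± 0.41 and -3.24 ± 0.42. All 6 of these differences passed (adjusted p from 3.56e-23 to 0.000307). Low levels of SULT1E1 and STRA6 were not confined to copper. SULT1E1 was at 13.4, 14.9, 8.77 and 9.63 CPM with lead, below every control of its set, and at 33.8, 34.8, 19.6 and 16.8 CPM with mercury. STRA6 was at 34.55, 34.95, 22.35 and 19.4 CPM with lead and 48, 38.6, 18.6 and 5.84 CPM with mercury. The lowest STRA6 controls were at 36.7 CPM in set 1 and 20.9 CPM in set 2.

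Of the 32 NRF2 targets, AKR1C2 and the efflux pump ABCC3 were higher with copper than with lead in edgeR, which called none lower, with 5 lower at an unadjusted p under 0.05. DESeq2 called 2 higher and 2 lower, set 1 alone 5 and 0, and set 2 alone 0 and 1. Against mercury 16 were higher and 2 lower (TKT and ALDH3A1), with 18 and 1 in set 1 alone and 1 and 0 in set 2 alone. NQO1 was at 1346, 1360, 1420 and 1492 CPM with lead and 856, 845, 1189 and 1179 CPM with mercury, a difference of 0.07 ± 0.09 (adjusted p = 0.898) and 0.54 ± 0.09 (adjusted p = 7.03e-06). Both copper libraries of set 1 lay above the lead libraries of that set in NQO1, and both of set 2 below theirs. HMOX1 was 0.39 ± 0.35 against lead (adjusted p = 0.801) and 2.29 ± 0.40 against mercury. In set 1 copper had 39.3 and 38.6 CPM of HMOX1, above lead (24.6 and 15.2 CPM). In set 2 copper had 6.29 and 6.26 CPM, below lead (16.2 and 13.4 CPM). With mercury HMOX1 was at 6.18, 4.22, 5.91 and 1.60 CPM. Sterol genes were lower with copper than with lead in 16 of 29 and than with mercury in 12, with 21 and 18 in set 1 alone and 2 and 0 in set 2 alone. HMGCS1 was -1.36 ± 0.16 and -0.73 ± 0.16. AREG was 1.19 ± 0.14 and 1.46 ± 0.14, and LAMB3 1.22 ± 0.18 and 1.98 ± 0.19. The 3 genes named as most raised were KRT16, S100A8 and CLDN1 against lead (2.75 ± 0.46, 2.52 ± 0.39 and 2.16 ± 0.36), and KRT16, PI3 and HMOX1 against mercury (2.39 ± 0.45, 2.30 ± 0.53 and 2.29 ± 0.40). KRT16 was at 4.78, 4.34, 8.30 and 12.02 CPM with lead and 10.3, 11.8, 8.61 and 6.87 CPM with mercury, while copper replicates 1 and 2 had 92.2 and 79.8 CPM and replicates 3 and 4 15.6 and 10.1 CPM. Doses were matched in µM only.

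**Figure D5:**
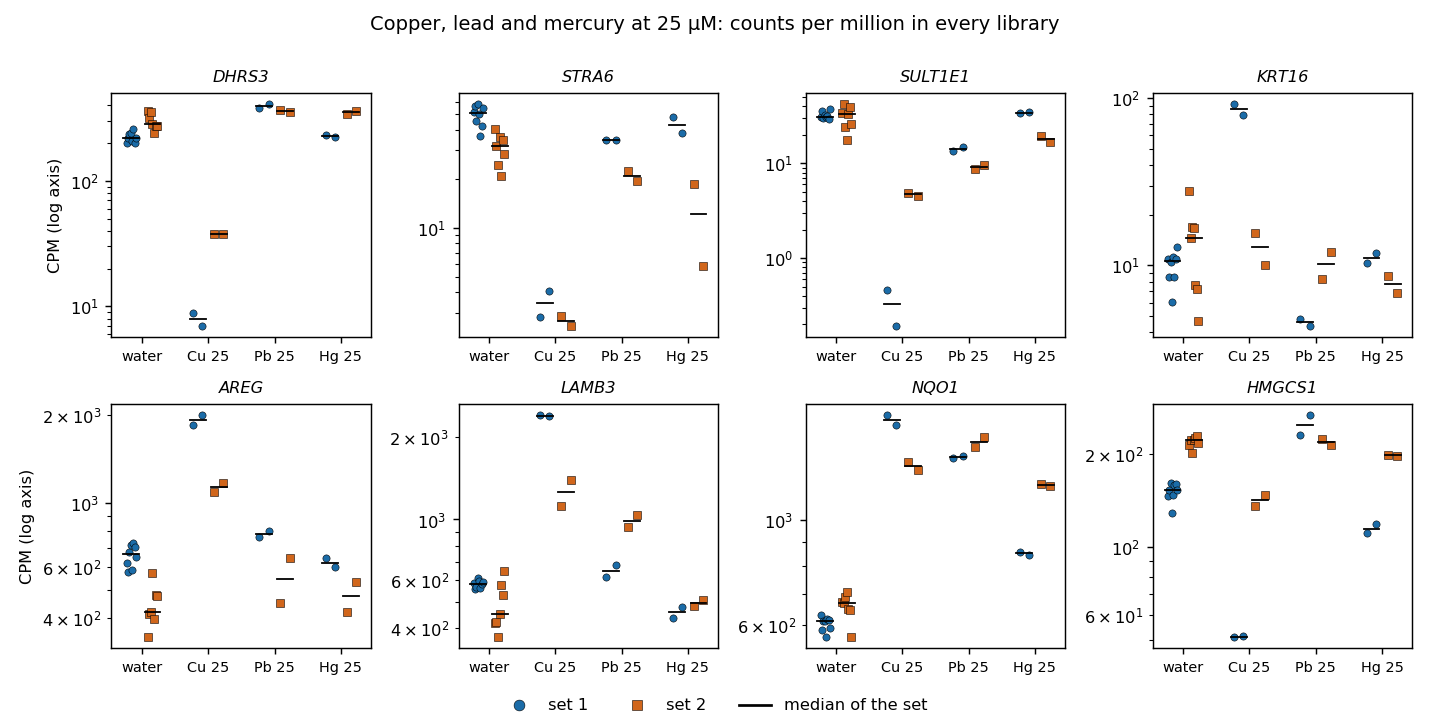
CPM (log axis) of 8 genes in water controls and at 25 µM of copper (Cu), lead (Pb) or mercury (Hg), with circles for set 1, squares for set 2 and a bar at the median of each set. DHRS3, STRA6 and SULT1E1 are lowest with copper, and SULT1E1 with lead is also below its controls. AREG and LAMB3 are high with copper. NQO1 with copper lies above lead in set 1 and below it in set 2. KRT16 is highest in the copper libraries of set 1.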

How the data were processed

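The deposited files hold raw read counts per gene symbol, 34718 symbols a library, and the authors' counts were used as deposited. Reads were aligned to GRCh38 with STAR and counted with featureCounts, per the submitters' processing notes, which also list FastQC and MultiQC; the sources used here give no versions and no strand or multi-mapping settings. Libraries were made with a multiplexed plate kit, per the labels' protocols.

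All 93 libraries of plate 3153-AT with the plate barcode were fitted with edgeR 4.0.16 in R 4.3.3 (TMM scaling, trended dispersion, quasi-likelihood test, Benjamini-Hochberg adjustment over all genes, threshold 0.05), with group means and a term for the set. A cadmium library with another barcode was left out. Genes passed edgeR's expression filter by group (minimum count 10, total 15) and a mean log2 CPM of at least 0, which left 13424. The planned design had the expression filter alone. The floor of 0 and the trended in place of a common dispersion were adopted after tests on simulated data, with counts from the common dispersion already seen, and the counts without each are given under the dependence on processing. SE is the log2 fold change divided by the root of its F statistic. Trends are log2 per 10-fold of dose. CPM in the text is scaled by TMM and takes no part in the tests. The number of libraries and their depth, 1932159 to 25769692 counts per copper or control library, limit precision.

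Named genes were, at 25 µM, the 10 highest and 10 lowest called genes with mean log2 CPM of at least 3 and all 4 libraries on one side of the median of their own controls, 4 and 4 at 2.5 µM, 2 and 2 at each lower dose, 3 and 3 for the trend, the step from 2.5 to 25 µM, lead and mercury, 4 for the difference between sets, the members of each list with the smallest p, and a fixed set of copper, antioxidant and heat shock genes. Clone-form symbols were not named. Some list members are counted but not reported here by name. The samples, lists and tests were chosen with earlier results of these data known. Replicate numbers are shared across groups: deviations of same-numbered libraries correlated at 0.147 to 0.508 over 24 pairs, libraries of the same set with another number at 0.104 to 0.44, and same-numbered libraries within a set, with its mean removed, at -0.033 to 0.163. The main fit carries the set and no replicate block, which was an alternative. Alternatives were RLE scaling, DESeq2 1.42.0, other filters, no set term, each set alone, thinning to 1434176 counts, a replicate block, other controls and each replicate left out. Promoter windows came from RefSeq (GRCh38.p14).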

Additional observations from a re-analysis of the deposited data

Results flagged for a closer look

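Of 164 groups of 4 libraries checked for the named genes, 4 held a library far from the other 3 by Dixon's ratio. Chance gives about 1 in 20 groups, so 4 of 164 is no more than that rate. Each group mixes the 2 sets, so the rate is a rough guide only. One library at copper 0.025 µM had 29.08 CPM of TNNI2, where the others had 18.12 to 18.57 CPM. EHF had 5.794 CPM in one library at 25 µM against 4.926 to 5.024 CPM, and 2.838 CPM in one at 2.5 µM against 5.827 to 6.352 CPM. KRT16 had 9.106 CPM in one library at 0.025 µM against 6.948 to 7.237 CPM.

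The effect of copper at 25 µM differed between the 2 sets of libraries for 67 genes, by edgeR's test of the difference with an adjusted p under 0.05. The 4 with the smallest p were DHRS3 (set 2 minus set 1, 1.7928 on the log2 scale), KRT17 (-1.8167), SCD (1.2197) and HMOX1 (-3.3109). In each of these the change was larger in size in set 1. The sets also differed in control depth and in the control level of many genes, and the part of either was not tested.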

How the results depend on the processing

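Counts of calls moved with the settings; the cause was not tested unless the setting itself removes libraries or reads. Of 162 named genes, most chosen by rules that favour 1 sign in both sets, KRT16 reversed in set 2 alone (-0.1223), and CLDN1 (-0.2695), GLRX2 (-0.0362) and RDH10 (-0.0317) reversed when counts were thinned; 64 lost their call in set 2 alone, 65 when thinned, 34 without the set term, 26 without replicate 1, 27 without replicate 2 and 15 against the other metals.

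In the order 25, 2.5, 0.25 and 0.025 µM against water, the trend, 25 against 2.5 µM, 2.5 against 0.25 µM, lead and mercury, counts were 1393, 853, 221, 15, 651, 158, 34, 313 and 691. Without the set term they were 819, 425, 4, 0, 250, 11, 0, 129 and 188. Set 2 alone gave 319, 297, 144, 143, 77, 4, 5, 46 and 30, and thinning all libraries to 1434176 counts 204, 121, 20, 8, 93, 18, 12, 42 and 75. A common dispersion gave 2143, 1523, 459, 65, 1395, 599, 73, 716 and 1478. Set 1 alone moved 0.25 µM to 127, 0.025 µM to 0, 25 against 2.5 µM to 584, 2.5 against 0.25 µM to 61 and lead to 613. DESeq2 moved 0.25 µM to 457, 0.025 µM to 96 and 25 against 2.5 µM to 265. Fitting only the copper and control libraries moved 0.25 µM to 423, 0.025 µM to 81 and 2.5 against 0.25 µM to 52. With the lead libraries added to that fit, lead moved to 475. Without any filter 0.25 µM gave 352, 0.025 µM 147, 2.5 against 0.25 µM 78 and 0.25 against 0.025 µM 3 where edgeR had 0 (167 unadjusted). The expression filter as planned, without the floor, gave 1325 at 25 µM and moved only 25 against 2.5 µM, to 103. Against the other metals 2.5, 0.25 and 0.025 µM gave 527, 32 and 0.

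Leaving out the copper libraries of each replicate number in turn gave 701 to 1329 at 25 µM, 474 to 657 at 2.5 µM, 48 to 168 at 0.25 µM, 0 to 13 at 0.025 µM, 221 to 568 for the trend, 7 to 161 for 25 against 2.5 µM, 9 to 26 for 2.5 against 0.25 µM, 169 to 310 for lead and 290 to 774 for mercury. The low ends came without replicate 1 (749 at 25 µM, 48 at 0.25 µM, 7 for 25 against 2.5 µM) or replicate 2 (701, 61 and 8), which leave set 1 with a single copper library a dose, assumed to vary like the other groups; at 0.025 µM replicates 2, 3 and 4 gave 2, 2 and 0. The difference between sets was called for 67 genes at 25 µM and 8 at 2.5 µM, for 106 and 18 with only the groups compared, 162 and 18 in DESeq2, 127 and 73 without a filter, 17 and 3 when thinned, 164 and 24 with a common dispersion, and 22 to 36 and 1 to 5 with a replicate left out. The share of higher among these 67 was 55.22%, and 40.54% under RLE and 44.44% in DESeq2. With the replicate block among the dosed libraries, without the controls (numbered 1 to 8 in set 1 and 10 to 16 in set 2, so that controls 3 and 4 are not in the set of copper 3 and 4), the trend had 725 calls, 25 against 2.5 µM 184, 2.5 against 0.25 µM 32, lead 352 and mercury 763, so that the pairing moved no count by over 1.5 times. Shallow controls in set 2 limit what that set alone can show.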
